A study of Homo sapiens with 9 samples.

Results

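The 10 genes described here encode enzymes and chaperones that modify and fold collagen chains in the endoplasmic reticulum. They are the alpha subunits of collagen prolyl 4-hydroxylase (P4HA1, P4HA2 and P4HA3), the lysyl hydroxylases (PLOD1, PLOD2 and PLOD3), and the folding factors SERPINH1, CRTAP, FKBP10 and PPIB. They were chosen by gene symbol, with no threshold on their values, but with earlier results of the comparison below in view. All 10 were found among the 21619 genes of the count tables, and all 10 passed the filter on low counts that left 13458 genes to test. Because of how the genes were chosen, the p-values below place each gene in a fit over all genes and do not test the group as a group.

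The RNA came from 9 xenograft tumours of MDA-MB-231, an established human triple-negative breast cancer line, here carrying EGFP-L10a, a ribosomal protein fused to a green fluorescent protein. The cells had been placed in the mammary fat pad of mice, in 5 animals mixed 1 to 1 with mesenchymal stem cells (MSC) of human marrow and in 4 animals alone. Each tumour came from its own mouse and was taken after 3 weeks. Strain, age and sex of the mice are not known here. Tagged polysomes were pulled down from lysates of the whole tumour, so the libraries hold RNA on the ribosomes of the tagged cells and any RNA carried over from other cells. No library of total RNA was used here, so RNA abundance and ribosome association cannot be told apart, and in such bulk samples neither can fewer cells of a type and less RNA per cell.

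Collagen chains are hydroxylated on proline and lysine while they are still in the endoplasmic reticulum. Prolyl hydroxylation gives the triple helix its thermal stability, and lysyl hydroxylation prepares the sites of later crosslinks and of sugar attachment. Both reactions need molecular oxygen, iron, ascorbate and 2-oxoglutarate, and P4HA1, P4HA2 and PLOD2 are well-known targets of the hypoxia-inducible factors. In breast cancer these enzymes have been studied for their part in matrix stiffness and invasion.

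The smallest library held 24616792 gene counts and the largest 65275226, and the 10 genes together took 0.0590 to 0.113% of them. Levels below are CPM, counts scaled to a common library size, as mean ± SD (n = 5 where MSC were added, n = 4 where not). A positive log2 fold change, given ± SE from the edgeR quasi-likelihood test, is a higher level with MSC, and a gene is called when its Benjamini-Hochberg adjusted p over all tested genes is under 0.05. Markers of the labelled line were present, with VIM at 6742 CPM or more and CD44 at 285 CPM or more in every tumour, while the hormone receptors ESR1 and PGR stayed under 1 CPM. ERBB2, the third receptor behind the triple-negative label, was read in every tumour, at 17.8 to 36.2 CPM. Of 6 markers read for the line, 3 were called higher with MSC and 0 lower, against 4.18 and 3.60% of all genes. They were CD44, AXL and EGFR, with log2 changes of 0.61 ± 0.13, 0.53 ± 0.12 and 0.90 ± 0.17. No library of MSC alone was read, so the part of MSC in these markers was not tested. The tagged gene, RPL10A, read 2302 ± 419 CPM with MSC and 1953 ± 119 without (edgeR adjusted p = 0.314, or 0.0311 without tumour 15), which does not separate tagged from native transcripts. Tumour 15, with MSC, stood apart for fibroblast markers. The summed level of 12 fibroblast and MSC markers was 190.4 CPM there and at most 94.9 CPM in the other tumours, and the proteoglycan DCN read 18.9 CPM there and at most 0.207 CPM elsewhere.

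Of the 10 genes, 7 were higher in tumours grown with MSC: P4HA1, P4HA2, PLOD1, PLOD2, PLOD3, SERPINH1 and PPIB. None was lower (0 of 10). CRTAP, FKBP10 and P4HA3 did not pass, though each had a positive log2 change. FKBP10 met the filter on low counts mainly through the tumours with MSC, so its direction is not independent of that filter. It is still counted among the 10 below. Over all 13458 genes tested, 7.78% were called, 4.18% higher and 3.60% lower. The median log2 change over the 10 genes was 0.84, against 0.01 over all genes tested. In 6 of the 10 the lowest tumour with MSC lay above the highest tumour without, a separation that 5.13% of all tested genes showed in that direction and 4.87% in the other. The count fell to 3 without tumour 9, to 3 without tumour 12 and to 4 without tumour 10. In these fits 1.30, 1.11 and 2.15% of all genes were called higher. The count was 4 without tumours 15 and 12 together, when 1.49% of all genes were called higher. Without tumour 13 it was 8, when 7.31% of all genes were called higher. The added call was that of FKBP10, which rests on values not independent of the filter. Without tumour 15 alone it was again 7, but PLOD3 lost its call and CRTAP gained one.

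**Figure D1:**
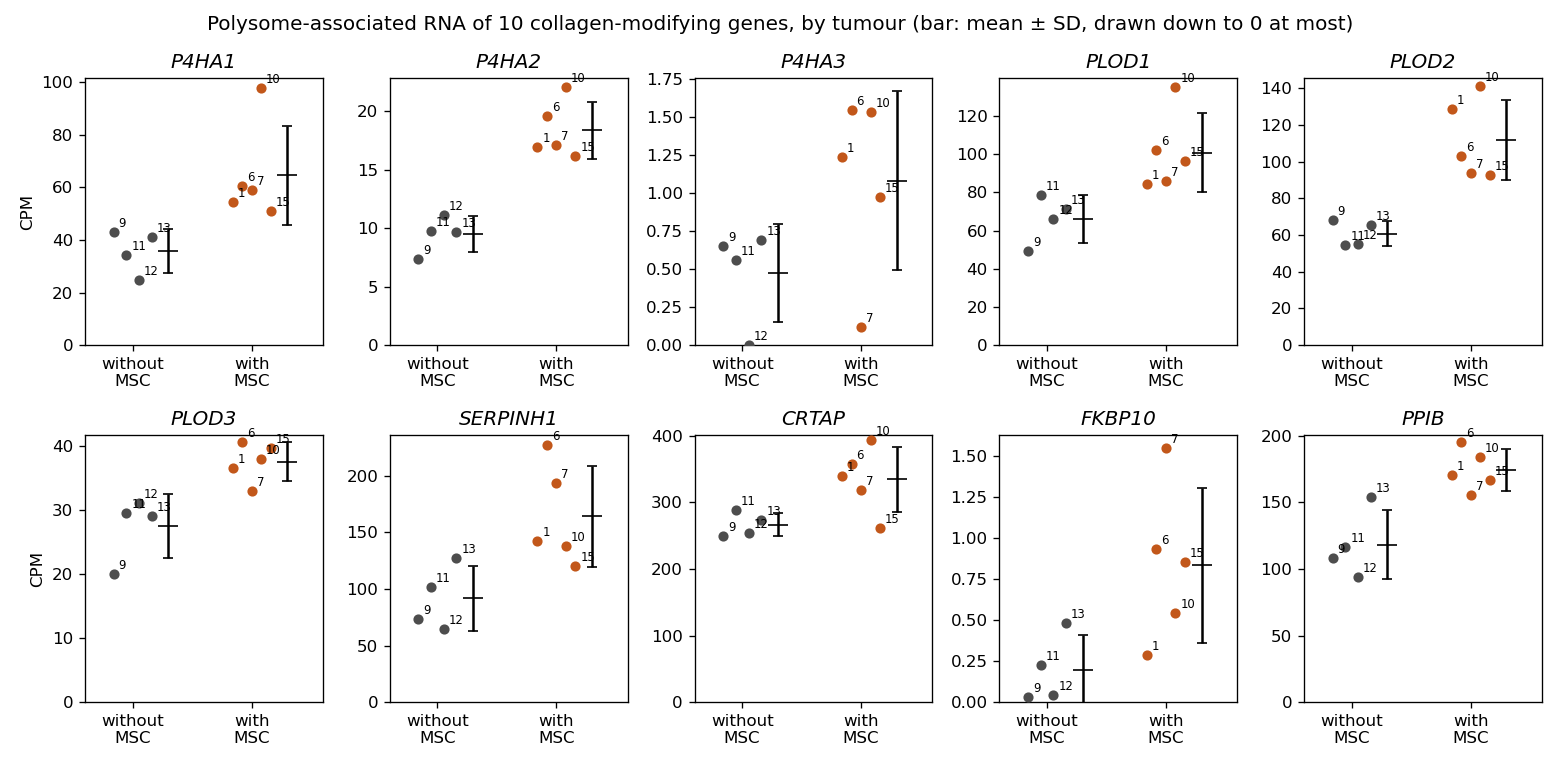
Level of each of the 10 genes in CPM (vertical axis, linear from 0) in 4 tumours without MSC (grey) and 5 with MSC (orange), 1 numbered point per tumour, with the group mean and SD as a black bar that stops at 0. The groups are apart for P4HA1, P4HA2, PLOD1, PLOD2, PLOD3 and PPIB and overlap for SERPINH1, CRTAP, P4HA3 and FKBP10.

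The prolyl 4-hydroxylases were taken first. P4HA1 is the alpha subunit that carries most of the activity in many cell types. It read 54.3, 60.5, 59.0, 97.8 and 51.1 CPM in tumours 1, 6, 7, 10 and 15 with MSC, and 42.9, 34.4, 24.7 and 41.3 CPM in tumours 9, 11, 12 and 13 without. The groups did not overlap, and tumour 10 stood well above the other tumours with MSC. The means were 64.5 ± 19.0 and 35.8 ± 8.27 CPM, a log2 change of 0.85 ± 0.19 (edgeR adjusted p = 0.0162). Without tumour 10 the change was 0.65 and still called (edgeR adjusted p = 0.0217), and without tumour 11 the call was lost by little (edgeR adjusted p = 0.0545).

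P4HA2, the alpha subunit prominent in cartilage and endothelium, read 16.9, 19.5, 17.1, 22.1 and 16.1 CPM with MSC, in the same order of tumours, and 7.40, 9.77, 11.1 and 9.71 CPM without. Every tumour with MSC was above every tumour without. The means were 18.3 ± 2.44 and 9.49 ± 1.53 CPM, a log2 change of 0.96 ± 0.15 or 1.94-fold (edgeR adjusted p = 0.00183). This call held in all 19 alternative fits. In GENCODE release 29 the antisense gene P4HA2-AS1 covers 14.8% of the exon bases of P4HA2, and without a known strand setting its reads cannot be told apart there. P4HA3, the least abundant alpha subunit, read 1.24, 1.54, 0.116, 1.53 and 0.971 CPM with MSC and 0.654, 0.556, 0 and 0.689 CPM without. Tumour 7, with MSC, was below 3 of the tumours without MSC, and tumour 12 held 0 counts of this gene. Its log2 change was 1.13 ± 0.71 (edgeR adjusted p = 0.340), and its 95% interval, -0.26 to 2.52, holds both directions.

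All 3 lysyl hydroxylases were higher with MSC. PLOD2, which hydroxylates lysines of the collagen telopeptides, read 129, 103, 93.6, 141 and 92.9 CPM with MSC and 68.4, 54.6, 55.1 and 65.2 CPM without. The lowest tumour with MSC was far above the highest without, and tumours 1 and 10 were the high ones. The means were 112 ± 21.8 and 60.8 ± 7.03 CPM, a log2 change of 0.88 ± 0.13 (edgeR adjusted p = 0.00117). Of the 10 genes PLOD2 had the smallest p, rank 15 of 13458, and P4HA2 the next, rank 23. The PLOD2 call, too, held in all 19 alternative fits, with a log2 change between 0.78 and 0.94.

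PLOD1, the enzyme for lysines of the triple helix whose loss causes the kyphoscoliotic form of Ehlers-Danlos syndrome, read 84.2, 102, 86.0, 135 and 96.4 CPM with MSC and 49.1, 78.6, 66.0 and 71.2 CPM without. The groups did not overlap, but tumours 1 and 7 lay close to tumour 11. The means were 101 ± 20.7 and 66.2 ± 12.5 CPM, a log2 change of 0.61 ± 0.15 (edgeR adjusted p = 0.0182). The call was lost without tumours 9, 10 or 12 (edgeR adjusted p up to 0.0679), without tumours 15 and 12 together (edgeR adjusted p = 0.0709), and after a correction for GC content and transcript length (0.44, edgeR adjusted p = 0.0555). PLOD3, which also transfers sugars to hydroxylysine, read 36.6, 40.6, 32.96, 38.0 and 39.7 CPM with MSC and 20.1, 29.6, 31.1 and 29.1 CPM without. Tumour 9 was the low one, and the other tumours without MSC came close to tumour 7. Its log2 change was 0.46 ± 0.13 (edgeR adjusted p = 0.0377). This call was lost in 6 of the 9 fits that left out 1 tumour, with library size only, without tumours 15 and 12 together, and after the GC and length correction, which gave 0.23 (edgeR adjusted p = 0.243).

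Stretches of the promoters of PLOD2 and P4HA1 are shown as examples that hold the core motif of hypoxia-inducible factors, ACGTG or GCGTG. Both genes were called in most fits and are textbook targets of these factors. So is P4HA2, called in all 19 alternative fits, but its window held no match and is not shown. The sequences are from RefSeq on GRCh38.p14, 5′ to 3′ on the gene's strand, and capitals mark matches to either motif on either strand (a match on the other strand reads CACGT or CACGC).
PLOD2, chr3:146161320-146161409, minus strand, bases -225 to -136 from the start site: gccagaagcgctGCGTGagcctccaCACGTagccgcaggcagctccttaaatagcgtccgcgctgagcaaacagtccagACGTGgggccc
P4HA1, chr10:73096936-73096960, minus strand, bases -94 to -70 from the start site: atcgagctCACGTagcgagggctgc
PLOD2 held 3 matches in the window from 250 bases before to 50 after its start site, and P4HA1 held 1. Of all 35116 promoters of that length, 48.4% held at least 1 match and 10.1% at least 3. Promoter entries were found for 8 of the 10 genes, and 6 of these 8 held a match: PLOD1, SERPINH1, CRTAP and PPIB were the others. The RefSeq windows of P4HA2 and PLOD3 held none. A match in so short a motif is a description of the letters and does not show binding, and its absence from this window says nothing of sites elsewhere. The build of the count files is hg19, so these coordinates are not those of the files.

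**Figure D2:**
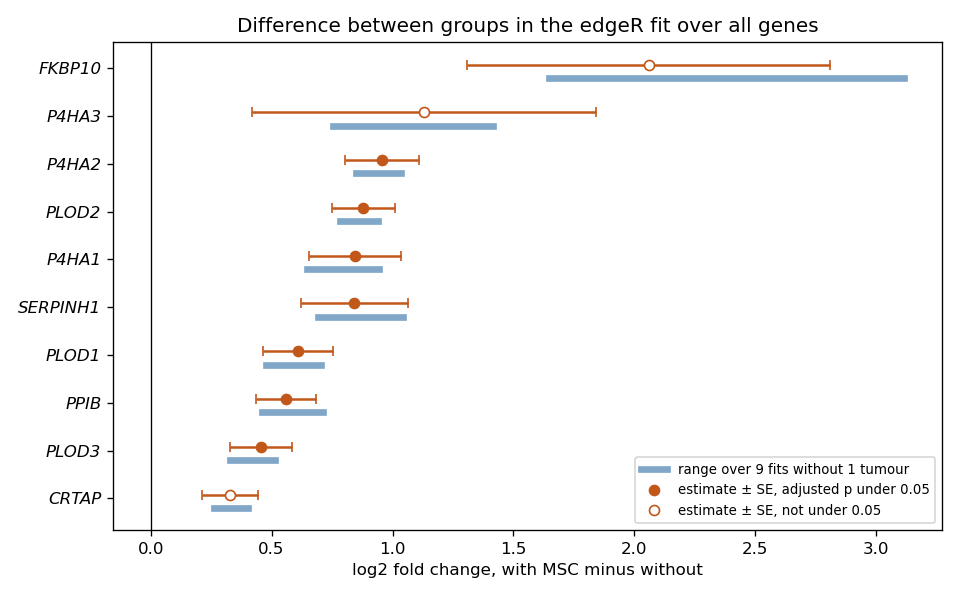
Log2 fold change of each gene, with MSC minus without (horizontal axis), with its SE (orange; filled where the adjusted p was under 0.05) and the range over 9 fits that each left out 1 tumour (blue). All 10 estimates and all 10 ranges lie above 0, and FKBP10 and P4HA3, the genes of lowest counts, have the widest errors.

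Among the folding factors, SERPINH1 had the largest change of those called. It encodes the collagen-specific chaperone HSP47, which binds the folded triple helix and is also a heat shock gene. It read 142, 228, 194, 138 and 121 CPM with MSC and 73.5, 101, 64.2 and 127 CPM without. Tumours 6 and 7 were the high ones, and tumour 13, without MSC, was above tumour 15, with MSC, so the groups overlapped. The means were 164 ± 44.7 and 91.6 ± 28.6 CPM, a log2 change of 0.84 ± 0.22 (edgeR adjusted p = 0.0390). The calls of SERPINH1 and PLOD3 each held in 10 of the 19 alternative fits, the fewest of the 7 genes. That of SERPINH1 was lost in 7 of the 9 fits without 1 tumour (edgeR adjusted p up to 0.116) and remained without tumours 15 or 13. It was also lost after the GC and length correction and with no filter.

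PPIB, cyclophilin B, a prolyl isomerase that works with CRTAP in a complex acting on fibrillar collagen, read 171, 195, 155, 184 and 166 CPM with MSC and 108, 116, 93.9 and 154 CPM without. Tumour 13 reached almost the level of tumour 7, the lowest with MSC. The log2 change was 0.56 ± 0.13 (edgeR adjusted p = 0.0126), lost without tumours 9 or 12 (edgeR adjusted p up to 0.0689) and without tumours 15 and 12 together. In GENCODE release 29, exons of SNX22 on the opposite strand cover 48.0% of the exon bases of PPIB. Whether counting used strand is not given, so reads of these genes where they overlap cannot be told apart. SNX22 read 5.07 ± 1.73 CPM with MSC and 4.95 ± 1.07 without, far below PPIB. If reads in the overlap were left uncounted as ambiguous, both levels are too low. The low level of SNX22 therefore does not settle what the overlap does to PPIB.

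CRTAP, cartilage-associated protein and the scaffold of that complex, was the most abundant of the 10 in CPM. It read 340.3, 358, 319, 393 and 262 CPM with MSC and 250.2, 288, 254 and 274 CPM without. Tumour 15 lay among the tumours without MSC, while the other tumours with MSC were above all of those. The log2 change was 0.33 ± 0.12 (edgeR adjusted p = 0.0828, 95% interval 0.10 to 0.55), the smallest of the 10. It passed without tumour 15 (0.40, edgeR adjusted p = 0.0283) and with DESeq2 (adjusted p = 0.0458). FKBP10, the prolyl isomerase FKBP65, was near the limit of detection, with 11, 26, 67, 27 and 30 counts in the libraries with MSC and 2, 7, 1 and 21 in those without. This is 0.835 ± 0.475 against 0.196 ± 0.211 CPM, and tumour 13 was above tumour 1. The gene met the filter on low counts mainly through the tumours with MSC. Its log2 change, 2.06 ± 0.75 (edgeR adjusted p = 0.0932), was the largest of the 10 and the least precise, and it was 3.12 without tumour 13 (edgeR adjusted p = 0.0223).

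Tumours differed among themselves within each group across several of these genes. Tumour 6 was among the 3 highest tumours for all 10 genes and tumour 10 for 8 of them. Tumour 9 was the lowest of all 9 for 5 genes and tumour 12 for 4. Tumour 15, the one with the high fibroblast markers, was the highest of the 9 for 0 genes and the lowest tumour with MSC for 5. With tumour 15 left out, the log2 changes of P4HA1, P4HA2, PLOD1, PLOD2, PLOD3, SERPINH1 and PPIB were 0.92, 1.00, 0.62, 0.94, 0.43, 0.93 and 0.57. Of these 7, PLOD3 alone was smaller than with that tumour.

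**Figure D3:**
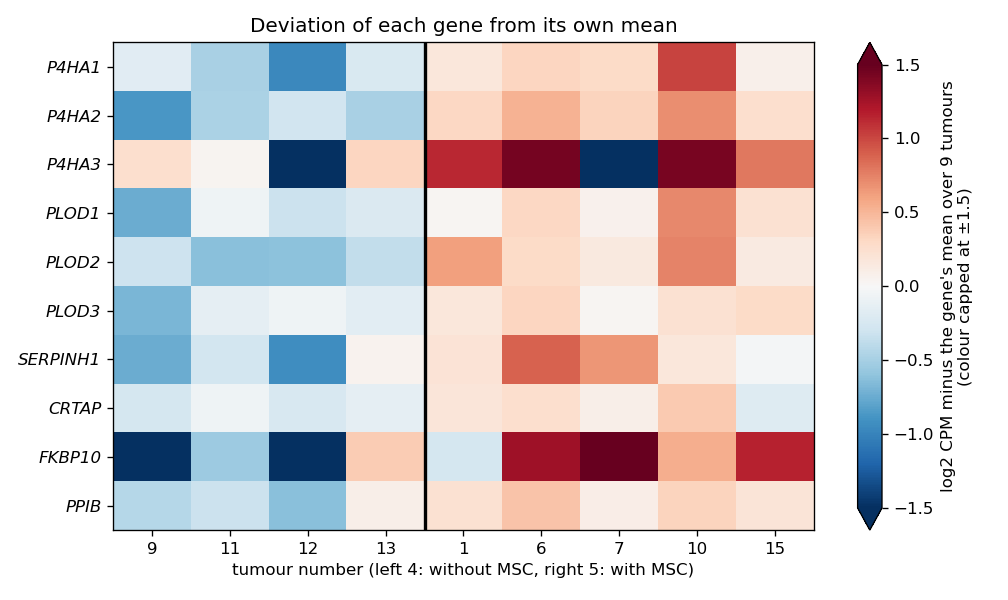
Log2 CPM of each gene (rows) in each tumour (columns, 4 without MSC to the left of the line and 5 with MSC to the right) minus the gene's mean over the 9 tumours, with red above and blue below that mean and colours capped at ±1.5. Tumours 6 and 10 are above the mean for all 10 genes, and tumour 12 is below it for all 10.

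Scaled by exon length, the genes covered a wide range of levels. In CPM per kilobase, the order by median over the 9 tumours was PPIB at 143.6, CRTAP at 43.4, PLOD1 at 28.6, SERPINH1 at 26.2, PLOD2 at 20.9, P4HA1 at 17.5, PLOD3 at 11.3, P4HA2 at 4.34, P4HA3 at 0.303 and FKBP10 at 0.181. PPIB, at 86.9 or more in every tumour, did not overlap CRTAP, at 59.3 at most. Each neighbour from CRTAP down to PLOD3 overlapped the next in its range over the tumours, as did P4HA3 and FKBP10, so the order within those stretches is not firm. P4HA2, at 5.94 at most, was below PLOD3, at 6.87 or more, in all 9 tumours. PPIB also serves secreted proteins other than collagen.

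**Figure D4:**
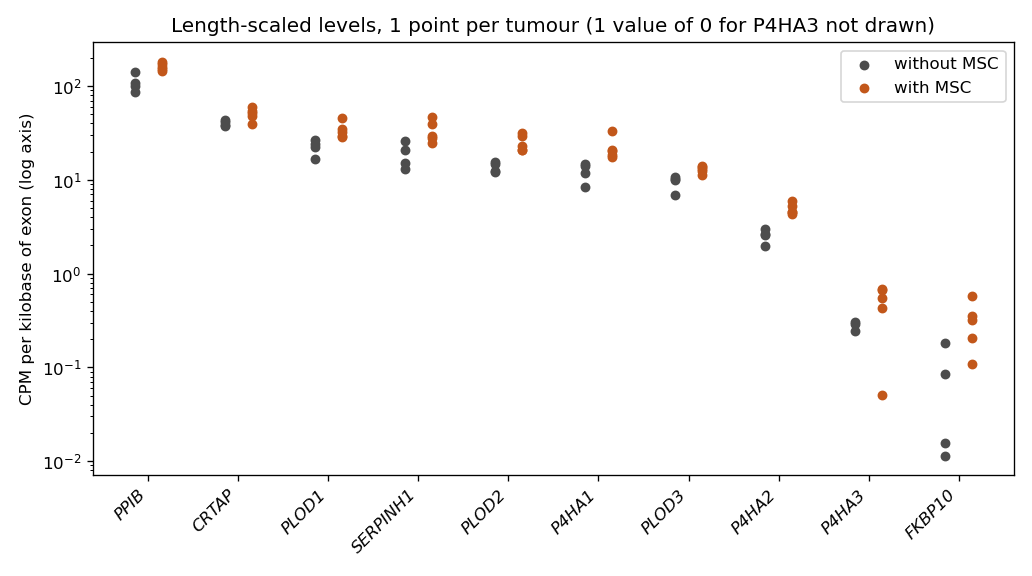
Level per kilobase of exon (CPM per kilobase, log axis) of the 10 genes, ordered by median, 1 point per tumour, grey without MSC and orange with MSC; the 0 of P4HA3 in tumour 12 is not drawn. PPIB lies above all others, and P4HA3 and FKBP10 lie under 1 in all tumours.

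The make-up of each enzyme family, on the same length-scaled values, overlapped between the groups. P4HA1 made up 79.9 ± 2.43% of the 3 alpha subunits with MSC and 80.9 ± 5.32% without, P4HA2 18.4 ± 2.04% and 17.8 ± 6.09%, and P4HA3 the small rest. In the group without MSC the P4HA2 share had the wider range, from 11.8% P4HA2 in tumour 9 to 26.1% in tumour 12. Of the lysyl hydroxylases, PLOD1 made up 47.2 ± 3.78% with MSC and 49.0 ± 4.74% without, PLOD2 34.8 ± 3.97% and 30.5 ± 6.38%, and PLOD3 18.0 ± 2.25% and 20.5 ± 2.36%. The PLOD2 share lay between 31.1 and 41.4% in tumours with MSC. Without MSC it lay between 25.0 and 39.5%, and tumour 9 was the high one. Among the 10 genes, no pair had a 50-base stretch in common between their longest annotated transcripts. SERPINH1 shared 1.14% of its 50-base stretches with the pseudogene SERPINH1P1.

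**Figure D5:**
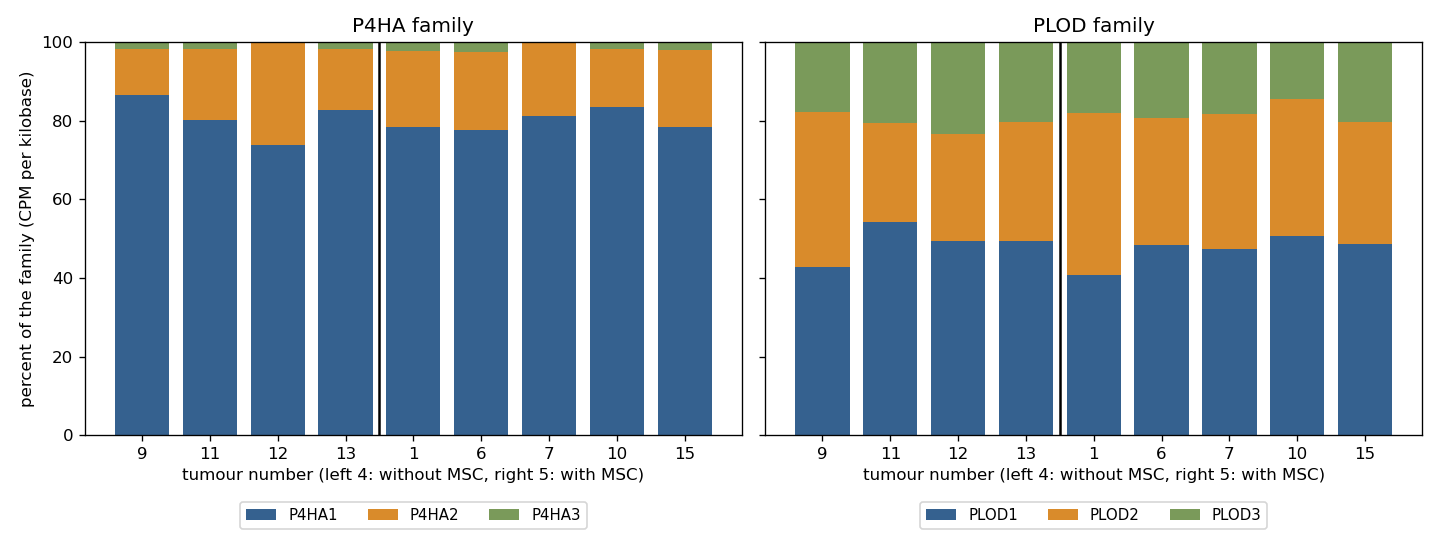
Share of each paralog in its family, as percent of the summed CPM per kilobase (vertical axis), for the prolyl hydroxylase alpha subunits (left) and the lysyl hydroxylases (right), 1 bar per tumour. With the length of the merged exons, P4HA1 takes 73.9 to 86.5% of its family in all tumours. On that length PLOD1 takes more of its family than PLOD2 in all but tumour 1.

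Other genes of collagen folding and modification were compared as a list of 26. Of these, 6 were higher with MSC and 0 lower, and the median log2 change was 0.28, against 4.18% higher and a median of 0.01 over all genes tested. P4HB, protein disulfide isomerase and the beta subunit of prolyl 4-hydroxylase, read 427, 495, 429.9, 496 and 421 CPM with MSC and 264, 352, 284 and 385 CPM without. The groups did not overlap, and the log2 change was 0.50 ± 0.12 (edgeR adjusted p = 0.0189). The other called genes of the list were the general chaperone HSPA5 (0.61 ± 0.12), the collagen gene regulator CREB3L1 (0.50 ± 0.12), the collagen galactosyltransferase GLT25D1, now COLGALT1 (0.49 ± 0.13), and the lectin chaperones CALR (0.47 ± 0.13) and CANX (0.40 ± 0.11). The prolyl 3-hydroxylase LEPRE1, now P3H1, which forms the complex with CRTAP and PPIB, read 29.04 ± 3.18 CPM with MSC and 25.8 ± 5.33 without (log2 0.17 ± 0.14, edgeR adjusted p = 0.487, 95% interval -0.11 to 0.45). Of that complex, then, PPIB was called and CRTAP and LEPRE1 were not; whether their changes differ was not tested. Without tumours 10, 9, 12 and 13 in turn, 1, 2, 1 and 10 genes of the list were called higher, when 2.15, 1.30, 1.11 and 7.31% of all genes were. After the GC and length correction 3 were called, and without tumours 15 and 12 together 1, when 2.68 and 1.49% of all genes were. P4HB lost its call without tumours 9, 10 or 12, without tumours 15 and 12 together, and after the correction (0.35), with edgeR adjusted p = 0.100 at most. GLT25D1 lost its call without tumours 6, 9, 10 or 12 and CREB3L1 without tumours 10 or 12. Both also lost it without tumours 15 and 12 together and after the correction, which gave 0.30 and 0.28.

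Of 15 collagen chains on which these enzymes act, 14 could be tested, and 3 were higher with MSC and 0 lower (median log2 change 0.52), against 4.18% and 3.60% of all genes tested. The basement membrane chains COL4A1 and COL4A2 had log2 changes of 0.98 ± 0.19 and 0.87 ± 0.16 (edgeR adjusted p = 0.00666 and 0.00559), and both calls held in all 19 alternative fits, though COL4A2 had a change of 0.50 after the GC and length correction. The fibrillar chain COL1A2 had a log2 change of 2.41 ± 0.51 (edgeR adjusted p = 0.0104), but it read 8.45 CPM in tumour 15 and at most 2.64 CPM elsewhere, and its change was 1.61 without that tumour. Its call was lost without tumour 12 (edgeR adjusted p = 0.0765) and in limma-voom (adjusted p = 0.149). COL1A1 read 55.4 CPM in tumour 15 and 8.73 to 26.1 CPM in the others, with a log2 change of 0.97 ± 0.48 that did not pass (edgeR adjusted p = 0.259). Of these 15 chains 4 are also in the list of fibroblast markers.

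Enzymes of the same cofactor class that act outside collagen were a further list, of 18 genes. P4HTM, a transmembrane prolyl hydroxylase, was the 1 called higher, at 15.3 ± 0.719 CPM with MSC and 10.01 ± 2.21 without (log2 0.61 ± 0.15, edgeR adjusted p = 0.0214), and 0 were lower. Over all genes tested 4.18% were called higher and 3.60% lower, and the share of this list called higher is near that. The list's median log2 change was 0.09, against 0.01 over all genes tested. P4HTM lost its call without tumours 9 or 12, without tumours 15 and 12 together, and after the GC and length correction.

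Genes whose levels followed those of a called gene most closely over the 9 tumours were found by the root mean square difference of log2 CPM, each gene centred on its own mean, among 6417 genes of at least 20 CPM. For PLOD2 they were the crosslinking enzyme LOX (0.132), IGFBP3 (0.158) and TNFSF15 (0.172). For P4HA1 they were the hexokinase HK2 (0.183), the glucose transporter SLC2A3 (0.191) and NDRG1 (0.194), and for P4HA2 the BMP antagonist NOG (0.150), the cholesterol transporter NPC1 (0.219) and NUCB1 (0.226). For scale, a gene at the same level in all tumours would differ by 0.477 from PLOD2, by 0.528 from P4HA1 and by 0.509 from P4HA2. PLOD1 lay nearest to CD68 (0.142), NUCB1 (0.145) and NPC1 (0.150), and PLOD3 to CLSTN1 (0.0843), TMEM115 (0.0873) and PVR (0.0878). Among the genes nearest to SERPINH1 were the stress-response phosphatase subunit PPP1R15A (0.170) and IER5 (0.226). PPIB lay nearest to the glycosylation enzyme ALG3 (0.0802), PRSS23 (0.0810) and C8orf55 (0.0855). The called genes differ between the groups, so nearness includes a shared difference between them.

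Markers of other cells were read beside these results. Genes were counted on the human build hg19, while cells of the host are of mouse. Low levels here therefore do not show that host cells were few. The 12 fibroblast and MSC markers summed to 67.5 to 190.4 CPM with MSC and 48.6 to 71.8 CPM without. Of these sums COL6A3 alone was 44.5 to 74.7 and 36.4 to 52.9 CPM. Of the 12, 6 passed the filter, and PDGFRA, THY1, POSTN and MXRA5 were under 1 CPM in every tumour. Without tumour 15, the high one, the 7 called genes were P4HA1, P4HA2, PLOD1, PLOD2, SERPINH1, PPIB and CRTAP, and 3.24% of all genes were called higher. The 6 leukocyte markers summed to 139.4 to 209 CPM with MSC and 96.0 to 139.3 CPM without, of which CD68 alone was 131 to 202 and 88.4 to 131 CPM. PTPRC, the defining surface marker of leukocytes, was 3.58 CPM in tumour 1 and at most 0.543 CPM elsewhere. ITGAM was under 1 CPM in every tumour. The 6 endothelial markers summed to 5.02 to 7.26 CPM with MSC and 8.33 to 10.8 CPM without, with CDH5, TEK, VWF and CLDN5 under 1 CPM throughout. Most of these sums was PECAM1, at 3.77 to 6.04 and 6.79 to 9.62 CPM. The 4 smooth muscle markers summed to 2.31 to 2.80 and 2.89 to 4.67 CPM, with MYH11, DES and CNN1 under 1 CPM. ACTG2 alone was 1.26 to 2.04 and 2.73 to 4.58 CPM. The 4 adipocyte markers summed to at most 3.91 CPM, in tumour 15, with LEP at 0 in all 9. The part of these cells in the results was not tested.

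The joint correction for GC content and transcript length moved the genes unequally, and the parts of GC content and of length in it were not separated. The longest transcripts of PLOD2 and P4HA1 had 37.6 and 40.8% GC, and their log2 changes were 0.93 and 0.93 after the correction. Those of PLOD1, SERPINH1 and PLOD3 had 58.6, 58.7 and 61.7% GC, and their changes fell to 0.44, 0.66 and 0.23 and lost their calls. P4HA2 (49.1% GC) and PPIB (58.2% GC) kept theirs, at 0.92 and 0.44. Among all genes, 2.68% were called higher after it and the median log2 change was -0.05.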

How the data were processed

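Polysome-associated RNA of 9 tumours was analysed from whole-number counts per gene symbol, deposited by the authors without normalization. Per the submitters' processing notes reads were handled with CASAVA 1.8.1, TopHat 1.4.0, HTSeq (no role or order stated) on build hg19. For the annotation, the strand setting and any removal of mouse reads, nothing is given in the sources used here. Lines for reads of no gene, ambiguous, of low quality, not aligned or not uniquely aligned (together 10.2 to 12.1% of counts) were left out. No 2 libraries of a group agreed within sampling noise (smallest chi-square per degree of freedom 24.0).

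All genes were fitted in edgeR 4.0.16 (R 4.3.3): filterByExpr, TMM, glmQLFit with robust=TRUE, Benjamini-Hochberg adjustment. SE is the log2 change divided by the square root of F, and 95% intervals are ± 1.96 SE. This normal quantile ignores the limited degrees of freedom of the test, so the intervals are approximate and can be too narrow. That of COL1A1, 0.03 to 1.91, leaves out 0 though its unadjusted edgeR p was 0.0777. The test was tried on simulated counts. Exon lengths and GC content came from GENCODE release 29, matched for 95.9% of tested genes, and the correction used splines with 4 degrees of freedom as offsets. Alternatives used other scalings and filters, DESeq2 1.42.0, limma-voom (limma 3.58.1) and fits without tumours.

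The 10 genes and the lists were chosen with earlier results of these data known. Named are the 10, up to 4 called genes of smallest p per further list, P4HB, LEPRE1, RPL10A and the 3 nearest genes of each called one, of which 1 is not reported here. CALR, CANX, COL1A1, SNX22 and the marker genes were named after their values were seen.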

Additional observations from a re-analysis of the deposited data

Results flagged for a closer look

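One value of the 20 groups of values of the 10 genes stood apart by Dixon's criterion at 95%. P4HA1 read 97.8 CPM in tumour 10, while the other tumours with MSC ran from 51.1 to 60.5 CPM, so that the gap to the nearest of them was 0.799 of the whole range. Chance flags about 1 in 20 such groups.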

How the results depend on the processing

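The log2 change of each of the 10 genes stayed positive in every fit that gave a value, and P4HA3 and FKBP10 gave none when 5 CPM were required in 4 or more libraries. With DESeq2, FKBP10 had a log2 change but no adjusted p, so it could not be called there. Calls of P4HA2 and PLOD2 held in all 19 alternatives. The count of 7 genes called higher was 4 after the GC and length correction, 4 without tumours 15 and 12 together, and 3 to 8 over the fits without 1 tumour. In those fits 2.68, 1.49 and 1.11 to 7.31% of all genes were called higher. The other scalings, filters and tests gave 6 to 8, when 2.89 to 6.65% of all genes were called higher. These shares of all genes stand beside the counts of the lists below as well. The count of 6 among the 26 further folding genes was 3 after the GC and length correction, 1 without tumours 15 and 12 together, and 1 to 10 without 1 tumour. The 3 collagen chains were 5 with robust=FALSE, when 4.02% of all genes were called higher, and 2 to 4 without 1 tumour. The 1 oxygenase outside collagen was 2 with DESeq2, 0 without tumours 15 and 12 together, and 0 to 2 without 1 tumour. After the GC and length correction 0 were higher and 1 was lower. With DESeq2 6.65% of all genes were called higher, and after the correction 498 of 12903 were called lower. With the longest transcript as length, PLOD2 was 38.8% of its family with MSC, against 34.8% with the merged exons. That choice was made after seeing the data, like the alternatives for the last 2 lists. The order of PLOD1 and PLOD2 in single tumours was not compared with the longest transcript. The cause of these shifts was not tested. No paired analysis was possible because the groups share no tumour number. Genes under 1 CPM, as P4HA3 and FKBP10 mostly were, are limited by depth.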
